A study of Homo sapiens with 4 samples.

Results

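Expression of 9 megakaryocyte and platelet genes, ITGA2B, GP9, GP1BB, F2RL3, PF4, ANGPT1, FERMT3, TUBB1 and FLI1, was read in K562 cells with and without ZNF16 over-expression. The genes were chosen by symbol. Of the 9 symbols, 8 had an entry among the 34692 of the signal table, and GP1BB, with no row of that symbol, was not analysed here. The established line K562 comes from a human chronic myelogenous leukaemia. The arrays compared stable transductants with ZNF16 over-expression (H4-1 and H4-2, here ZNF16 replicates 1 and 2) with stable control transductants (PC1 and PC2, here control replicates 1 and 2), both in K562 and both grown without a stated differentiation agent. ZNF16 is a zinc finger gene, and the question was how it affects gene expression in these cells. The sources used here do not give the vector, its promoter or whether each transductant was a clone or a pool. With 2 arrays a group, and no statement that transductants of a group were made separately, the p-values reflect the spread among these arrays alone, and that spread may be technical.

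Megakaryocytes are the marrow cells that shed platelets. They arise from a progenitor shared with red cells under GATA1 and the ETS factor FLI1, and they build up a set of surface receptors for clotting and adhesion, chemokine-filled granules and a microtubule ring. K562 cells have features of both lineages and are widely used to study the choice between them. Among the 9 genes, ITGA2B encodes the alpha chain (CD41) of the platelet fibrinogen receptor, and GP9 and GP1BB encode chains of the von Willebrand factor receptor. F2RL3 encodes the thrombin receptor PAR4, PF4 a granule chemokine, and ANGPT1 angiopoietin 1, a secreted ligand of the receptor TEK. FERMT3 encodes kindlin-3, which activates integrins in blood cells, TUBB1 the beta-1 tubulin of the platelet ring, and FLI1 the ETS factor.

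Promoters are shown for a pair of genes below detection (ITGA2B, GP9) and a pair detected on every array (FERMT3, TUBB1), because the lineage factors named above bind GATA and ETS words. The sequences are RefSeq's on GRCh38.p14, from 250 bases before to 50 after an annotated transcript start, and 6 of the 9 genes had one. The start used is at the outer end of the annotated gene for ITGA2B and lies 5934 bases inside it for GP9, 2991 for TUBB1 and 801 for FERMT3, so the windows of these 3 genes lie at internal starts. Capitals mark 2 words on either strand. The GATA word is AGATAA, with T allowed in place of its first letter and G in place of its last. The ETS word is AGGAAG, with C allowed in place of its first letter. In GP9 a pair of ETS words overlap. ITGA2B is shown from chr17:44389600-44389899, minus strand, GP9 from chr3:129060529-129060828, plus strand, FERMT3 (the first of 2 starts) from chr11:64206471-64206770, plus strand, and TUBB1 from chr20:59019179-59019478, plus strand.
ITGA2B: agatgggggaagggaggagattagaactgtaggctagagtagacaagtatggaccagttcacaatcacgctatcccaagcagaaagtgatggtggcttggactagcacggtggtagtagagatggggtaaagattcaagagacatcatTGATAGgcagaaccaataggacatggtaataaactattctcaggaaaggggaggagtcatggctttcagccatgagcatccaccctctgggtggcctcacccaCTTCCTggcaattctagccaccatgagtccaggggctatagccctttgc
GP9: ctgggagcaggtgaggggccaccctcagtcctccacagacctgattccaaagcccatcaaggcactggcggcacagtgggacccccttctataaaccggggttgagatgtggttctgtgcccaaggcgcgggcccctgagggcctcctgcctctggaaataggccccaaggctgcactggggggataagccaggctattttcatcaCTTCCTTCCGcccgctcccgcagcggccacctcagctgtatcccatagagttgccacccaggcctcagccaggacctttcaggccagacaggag
FERMT3: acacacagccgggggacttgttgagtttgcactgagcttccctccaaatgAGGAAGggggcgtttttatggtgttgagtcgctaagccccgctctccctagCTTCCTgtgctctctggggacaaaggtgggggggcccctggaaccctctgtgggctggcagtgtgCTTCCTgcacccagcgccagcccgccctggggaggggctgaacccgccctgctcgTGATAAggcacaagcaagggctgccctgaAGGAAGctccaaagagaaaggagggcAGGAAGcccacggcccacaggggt
TUBB1: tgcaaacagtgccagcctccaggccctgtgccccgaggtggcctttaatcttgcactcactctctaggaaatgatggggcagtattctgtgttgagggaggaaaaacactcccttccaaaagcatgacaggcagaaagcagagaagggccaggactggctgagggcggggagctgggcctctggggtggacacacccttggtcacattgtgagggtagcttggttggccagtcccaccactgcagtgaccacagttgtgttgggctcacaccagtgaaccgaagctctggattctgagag
The ITGA2B window holds 1 GATA word and 1 ETS word, GP9 holds no GATA word and 2 ETS words, FERMT3 holds 1 GATA word and 5 ETS words, and TUBB1 holds neither. Of 35116 windows of this length, 25% hold a GATA word and 46.9% an ETS word. Among the windows shown, a GATA word thus stood in that of 1 undetected and 1 detected gene. Of the windows not shown, the second FERMT3 start and F2RL3 held no GATA word, and GP1BB held 1. A match is a description of the letters only.

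Across the series, ZNF16 itself was detected on no array, with deposited signals of 401 and 411 under over-expression and 393 and 363 in the controls, so it does not check the labels. That entry was taken to combine several probes, and the sources used here do not say whether any reads the transduced sequence. Between 9913 and 10762 entries were detected on an array. The mean signal of the negative control beads, inferred from the detection p-values, was 388 and 389 for ZNF16 replicates 1 and 2, and 369.8 and 393 for the controls. The lowest signal that a detected single-probe entry had was 488, 478, 459 and 485 in the same order. Control replicate 2 stood apart, since the SD of log2 differences over 10868 tested entries was 0.610 and 0.525 from ZNF16 replicates 1 and 2 and 0.520 from the other control. Control replicate 1 differed from the same ZNF16 arrays with an SD of 0.413 and 0.378, and those 2 arrays from each other with 0.341. Of 14 erythroid markers, 10 were detected on 4 arrays, among them HBG1, HBE1 and TFRC. Of the other marker lists, 1 of 12 monocyte and granulocyte markers, 1 of 9 mast cell and basophil markers and 1 of 8 lymphoid markers were detected on 4 arrays. So were 4 of 12 markers of fibroblast, endothelial and epithelial cells. The erythroid signals, most of whose total came from the globins HBG1, HBG2, HBE1 and HBZ, summed to 346553 and 342070 with ZNF16 and to 325946 and 312005 in the controls. In these signals, not normalized between arrays, HBG1 and HBE1 were lower on both ZNF16 arrays than on both controls, and the HBG2 groups overlapped. After normalization the groups overlapped for HBG1, HBG2 and HBE1 alike. The group means of HBG1 were then equal, and the log2 differences of HBE1 and HBG2 were −0.03 and 0.09. HBZ had 54583 and 48868 with ZNF16 and 38727 and 26964 in the controls, so the sums follow few genes and do not describe the list. The 10 tested erythroid markers had a median log2 difference of 0.28, from −0.87 for AHSP to 0.75 for HBZ. The tested markers of the monocyte and granulocyte, mast cell and basophil, and lymphoid lists had medians of −0.72 (3 genes), −1.02 (2) and −0.55 (2). The lowest were CD33 at −1.44, ENPP3 at −1.99 and CD3D at −0.89. The highest, in the same order, were CEBPA at 0.20, GATA2 at −0.05 and a lymphoid marker at −0.22. SPI1, the middle value of the first list, had controls 1.51 apart on the log2 scale. The list of fibroblast, endothelial and epithelial markers had a median of −0.16 (5). None of the tested markers passed the test, with limma adjusted p-values of 0.108 or more. The part of these markers in the results below was not tested.

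K562 cells of both groups had readable signal for 4 of the 8 genes and none above background for the other 4. ANGPT1, FERMT3 and TUBB1 were detected on all 4 arrays, each with a detection p-value of 0, meaning that no negative control bead was as bright. F2RL3 was detected on 2. ITGA2B, GP9, PF4 and FLI1 were detected on none. A detection p-value is the share of the array's negative control beads at or above the signal, and detection was set at a p under 0.05. Of all 34692 entries, 10868 were detected on at least 2 arrays.

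**Figure D1:**
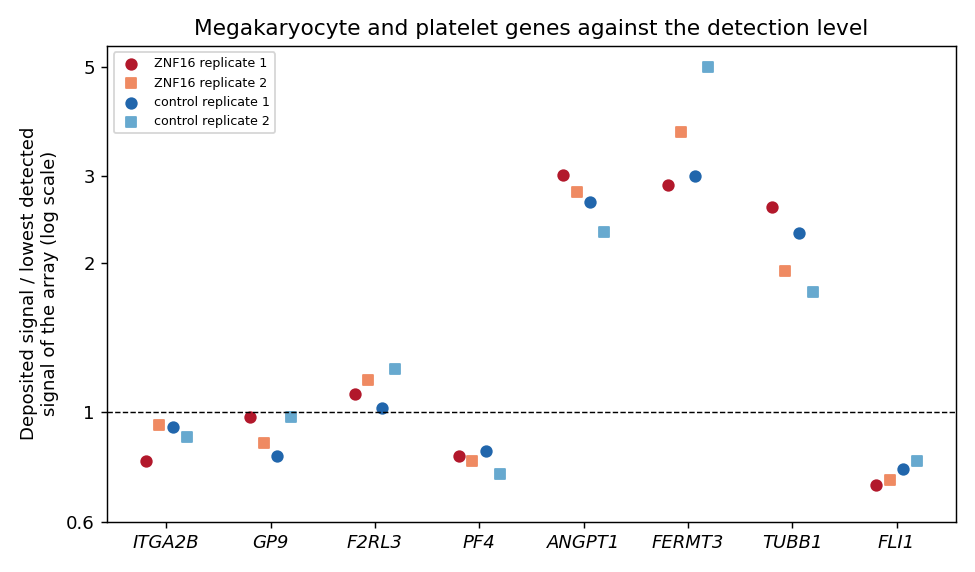
Deposited signal of each gene on each array, divided by the lowest signal of a detected single-probe entry on that array (log scale); circles and squares are the 4 arrays and the dashed line at 1 is the detection level. ITGA2B, GP9, PF4 and FLI1 lie below the line on all 4 arrays, and F2RL3, ANGPT1, FERMT3 and TUBB1 lie above it on all 4.

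Of the surface receptors of adhesion, ITGA2B had signals of 388 and 449.7 with ZNF16 and 429 and 433 in the controls. The groups overlapped, and ZNF16 replicate 1 lay at the negative control mean. Its detection p-values were 0.566 and 0.132 with ZNF16 and 0.151 and 0.299 in the controls. GP9 had signals of 477 and 413 with ZNF16 and 375 and 473 in the controls, with detection p-values of 0.0818, 0.358, 0.516 and 0.0831. One array of each group came close to the detection level and the other lay well under it, so the groups overlapped. Both entries are single probes, so that no brighter probe is hidden in them, and no fold is given where both groups lie in the background.

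GP1BB, the partner of GP9 in the von Willebrand factor receptor, lies at chr22:19723539-19724771 on GRCh38.p14. It is preceded by SEPT5 (now SEPTIN5), a septin gene at chr22:19714503-19723319, and RefSeq annotates a transcript locus that runs through both, at chr22:19717220-19724774. The SEPT5 entry had signals of 9021 and 7962 with ZNF16 and 5866 and 3922 in the controls. Both ZNF16 arrays were above both controls. Its detection p-values, 0.0870 to 0.159, kept it out of the tested entries although its signal was far above the detection level. The entry was taken to combine several probes, of which at least 1 was bright. In a fit over all 34692 entries SEPT5 had a log2 difference of 0.85 ± 0.21 (SE, n = 2 a group), a 1.81-fold difference, with a limma adjusted p of 0.647. The sources used here do not say which transcripts its probes read, and SEPT5 gives no value for GP1BB. The value was 0.63 without control replicate 2.

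F2RL3, the thrombin receptor, had signals of 531 and 554 with ZNF16 and 468 and 594 in the controls. The controls bracketed the ZNF16 arrays. The entry was taken to combine several probes. Its detection p-values were 0.00115 and 0.0615 with ZNF16 and 0.0561 and 0.00487 in the controls, so that 1 array of each group was called. All 4 signals exceeded the lowest detected signal of their array. After background correction and quantile normalization the log2 difference, ZNF16 minus control, was 0.15 ± 0.29 (SE, n = 2 a group), with a 95% interval from −0.54 to 0.85 and a limma adjusted p of 0.900. Its sign turned with 1 array left out, being −0.21 without control replicate 1 and 0.52 without the other control, and it was 0.08 without ZNF16 replicate 2. Under median scaling it was −0.09, but that scaling moved the median of all tested entries to −0.19, and relative to it F2RL3 was at 0.10.

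PF4, the granule chemokine, had signals of 399 and 381 with ZNF16 and 383 and 363 in the controls. All 4 lay within 0.5 SD of the negative control mean, from −0.47 to 0.21, and the groups overlapped. The entry for PF4V1, its near-identical copy, was undetected on every array as well, with detection p-values from 0.667 to 0.873.

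ANGPT1 was the only one of the 4 tested genes in which the groups did not overlap. Its signals were 1474 and 1334 with ZNF16 and 1221 and 1123 in the controls. Both ZNF16 arrays were above both controls. The log2 difference was 0.39 ± 0.22 (SE, n = 2 a group), a 1.31-fold difference, with a 95% interval from −0.14 to 0.92 and a limma adjusted p of 0.679. The normalized values of ANGPT1 differed by 0.26 between the ZNF16 arrays and by 0.13 between the controls. The difference had the same sign in all 15 alternatives, between 0.15 and 0.52. Where 4 arrays were used, limma adjusted p-values ran from 0.554 to 0.849. Many alternatives could not turn the sign. Changes of filter, variance model or block leave the difference as it is. Groups that do not overlap keep the sign of their difference with 1 array left out. It was 0.15 where all entries gave the negative-control statistics and 0.26 without ZNF16 replicate 1. Under median scaling it was 0.17, or 0.36 relative to the median of all tested entries.

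A gene with separated groups is common here. Both ZNF16 arrays lay above both controls in 21.0% of the 10868 tested entries and below both in 19.0%, so 1 of 4 is close to the background. TEK, the receptor of angiopoietin 1, was detected on 1 control array only (signals from 416 to 443), and ANGPT2, ANGPT4 and TIE1 were detected on none. None of these 4 was tested.

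FERMT3, the integrin activator, had signals of 1410.5 and 1763 with ZNF16 and 1379.7 and 2426 in the controls. Control replicate 2 was brightest and control replicate 1 dimmest, so the ZNF16 arrays lay between the controls. The log2 difference was −0.29 ± 0.40 (SE, n = 2 a group), with a 95% interval from −1.24 to 0.65 and a limma adjusted p of 0.862. The gap between the 2 controls, 1.19 on the log2 scale, was larger than the difference between the groups. Without control replicate 2 the difference was 0.30, and without control replicate 1 it was −0.89. It was −0.12 and −0.47 without ZNF16 replicates 1 and 2.

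TUBB1, the platelet tubulin, had signals of 1268 and 925 with ZNF16 and 1058 and 849.8 in the controls. The higher control lay between the ZNF16 arrays. The log2 difference was 0.34 ± 0.33 (SE, n = 2 a group), with a 95% interval from −0.44 to 1.12 and a limma adjusted p of 0.799. The value rested on ZNF16 replicate 1, being −0.04 without that array and 0.73 without ZNF16 replicate 2. It was 0.08 without control replicate 2, 0.60 without control replicate 1 and 0.10 where all entries gave the negative-control statistics. Under median scaling it was 0.10, or 0.29 relative to the median of all tested entries.

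FLI1, the ETS factor, had signals of 347 and 349 with ZNF16 and 352 and 386 in the controls. All 4 were below the negative control mean of their array, from −0.61 to −0.11 in units of its SD, and the detection p-values ran from 0.578 to 0.734. The ZNF16 arrays were both below the controls, but all lay within the spread of beads that match no transcript, so no fold is given.

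**Figure D2:**
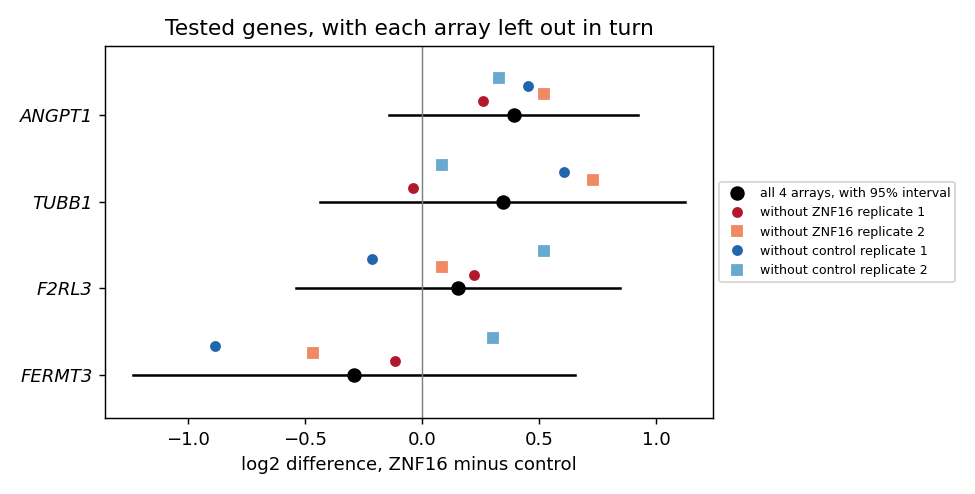
Log2 difference, ZNF16 minus control, of the 4 tested genes; black points and bars give the estimate from 4 arrays with its 95% interval, and coloured points give the estimate with 1 array left out. Every interval spans 0. ANGPT1 alone keeps its sign whichever array is left out, as a gene whose groups do not overlap must.

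None of the 4 tested genes passed limma's test at an adjusted p of 0.05, where 0% of the 10868 tested entries passed. At an unadjusted p under 0.05 there were 835 entries, 7.68% of those tested, and none of the 4 genes was among them. The median log2 difference of the 4 was 0.25, beside 0.01 over all tested entries. With 1 array left out it was 0.09 without ZNF16 replicate 1, 0.12 without the first control and at most 0.31. It was 0.13 with no background removed and 0.05 where all entries gave the negative-control statistics. Under median scaling it was 0.004, beside −0.19 over all tested entries. Larger absolute differences than that of ANGPT1 were found in 25.6% of tested entries, and than those of TUBB1, FERMT3 and F2RL3 in 31.0%, 37.7% and 63.6%. The 95% intervals of the 4 genes reached up to 1.12, for TUBB1, and down to −1.24, for FERMT3. An exact permutation test of 2 arrays against 2 cannot give a two-sided p below 0.333.

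The pattern of FERMT3 over the arrays, the widest of the 3 genes detected throughout (1.19 on the log2 scale), had close matches among other tested entries. The 3 tested entries closest to it, by root mean square difference of mean-centred log2 values over 4 arrays, were GSS (0.0128), CBL (0.0259) and HDGF (0.0277). GSS encodes glutathione synthetase, CBL a ubiquitin ligase of receptor signalling and HDGF a nuclear growth factor-like protein. HDGF had signals of 1965 and 2574 with ZNF16 and 1996 and 3646 in the controls, again highest in control replicate 2. In all, 53 of 10867 entries lay within 0.1 of FERMT3.

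Around the 9 genes, a further 107 entries were read in 7 lists by role in platelets or megakaryocytes. The lists are not limited to genes particular to that lineage. Of the 107 entries, 37 were detected on 4 arrays, beside 7833 of all 34692 entries. A further 11 were detected on 1 to 3 arrays and 59 on none, and 42 were tested. The tested genes split evenly, with 21 above 0 and 21 below, and a median log2 difference of 0.01. None passed the test, and the lowest limma adjusted p was 0.382. At an unadjusted p under 0.05 there were 3 of the 42, beside 7.68% of all tested entries, so the count is close to the background.

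**Figure D3:**
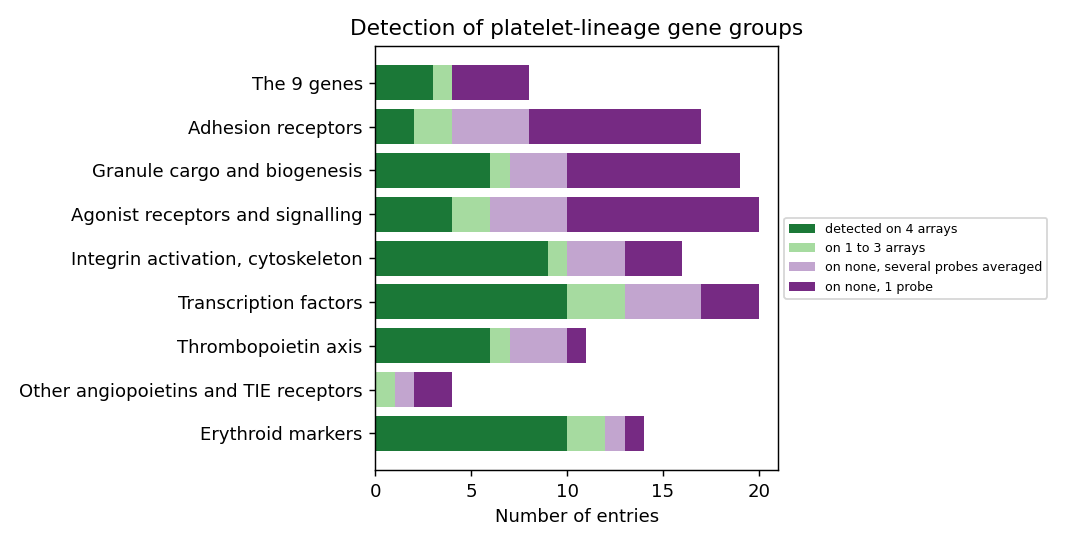
Number of entries in each list by role in platelets or megakaryocytes, and among erythroid markers, by the number of arrays with detection. Undetected entries are split into single probes and entries taken to combine several probes (labelled as averaged). Adhesion, granule and agonist groups are mostly undetected, while transcription factors and erythroid markers are mostly detected. Of all 34692 entries, 7833 were detected on 4 arrays, so being undetected is not particular to these groups.

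Of 20 transcription factors, 10 were detected on 4 arrays, among them GATA1, the shared factor of both lineages, NFE2, which drives platelet release, and GFI1B, a repressor needed in both. Of 17 adhesion receptors only PECAM1 and GP6, the collagen receptor, were detected on 4 arrays, while GP5 and ITGB3, the beta partner of ITGA2B, were single probes below detection on every array. GP1BA was detected on control replicate 1 only, with a signal of 459.1, just above that array's lowest detected signal. The granule proteins PPBP, VWF and THBS1 were undetected on every array. Of the 59 undetected entries 37 were taken as single probes and 22 as several, and a p-value combined over probes can hide a detected probe. ITGB1, the integrin beta-1 chain, is such a case, with signals from 1416 to 1802.5 and detection p-values from 0.0628 to 0.215.

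Among adhesion receptors, 3 genes were tested, 2 above 0 and 1 below, with a median log2 difference of 0.02. PECAM1 had −0.16 ± 0.26 (SE), GP6 0.08 ± 0.27 and TREML1, a granule receptor, 0.02 ± 0.24, with limma adjusted p-values from 0.890 to 0.984. The signs of all 3 turned with 1 array left out.

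Among granule genes, 6 were tested, 2 above 0 and 4 below, with a median of −0.12. VAMP8, which drives granule release, had a log2 difference of 0.56 ± 0.33 (SE) and HPS1, of dense granule biogenesis, 0.41 ± 0.21. VPS33B and NBEAL2, both needed to form alpha granules, had −0.54 ± 0.28 and −0.46 ± 0.22. In VAMP8 and VPS33B the controls were 0.92 and 0.67 apart, more than the difference between the groups. With control replicate 2 left out VAMP8 was 0.10 and VPS33B −0.21, and with control replicate 1 left out they were 1.02 and −0.87. Where all entries gave the negative-control statistics HPS1 was 0.03, NBEAL2 −0.04 and VPS33B −0.18, while VAMP8 was 0.78. The limma adjusted p-values of these genes in the main fit ran from 0.662 to 0.687.

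Among agonist receptors and signalling genes, 5 were tested, 2 above 0 and 3 below, with a median of −0.03. The tyrosine kinase SYK had signals of 862 and 919 with ZNF16 and 773 and 755 in the controls. Both ZNF16 arrays were above both controls, with a log2 difference of 0.46 ± 0.21 (SE; limma adjusted p = 0.655). PLCG2, a phospholipase below SYK, had −0.24 ± 0.21, the kinase LYN −0.23 ± 0.24 and GNA13, a G protein alpha chain, 0.17 ± 0.25. Where all entries gave the negative-control statistics SYK was 0.08, PLCG2 −0.02 and GNA13 0.03, while LYN was −0.39. Leaving out control replicate 2 gave −0.033 for LYN, and leaving out control replicate 1 gave −0.43. GNA13 was near 0 without control replicate 2 (−0.002) and without ZNF16 replicate 1 (0.008), and at 0.35 and 0.34 without the others. F2R, the thrombin receptor PAR1, was detected on all 4 arrays, with signals of 24314 and 22242 with ZNF16 and 27695 and 24220.5 in the controls.

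Among genes of integrin activation and the cytoskeleton, 10 were tested, 6 above 0 and 4 below, with a median of 0.17. WAS, the actin regulator of Wiskott-Aldrich syndrome, had the smallest p of all 42 further genes tested. Its signals were 823 and 887 with ZNF16 and 615 and 653 in the controls, so both ZNF16 arrays were above both controls. The log2 difference was 0.96 ± 0.21 (SE, n = 2 a group; limma adjusted p = 0.382), but 0.45 where no background was removed and 0.12 where all entries gave the negative-control statistics.

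TLN1, talin 1, which binds integrin tails beside kindlin-3, had signals of 1367 and 1508 with ZNF16 and 1155 and 1016 in the controls. Its log2 difference was 0.60 ± 0.22 (SE; limma adjusted p = 0.613). ACTN1, an actin crosslinker, had 0.53 ± 0.32 and TPM4, a tropomyosin, −0.37 ± 0.25, with adjusted p-values of 0.687 and 0.718. With control replicate 2 left out ACTN1 was 0.11 and TPM4 −0.17, and with control replicate 1 left out they were 0.95 and −0.58. TPM4 was −0.22 without ZNF16 replicate 1.

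Among transcription factors, 12 were tested, 7 above 0 and 5 below, with a median of 0.12. ETV6 had 0.36 ± 0.22 (SE) and LMO2 0.30 ± 0.22, while ZFPM1, the cofactor FOG1 of GATA1, had −0.57 ± 0.39 and GATA1 −0.39 ± 0.30. Their limma adjusted p-values ran from 0.688 to 0.749. GATA1 had signals of 1241.3 and 1202 with ZNF16 and 1241.4 and 1747 in the controls. Only control replicate 2 stood higher, and without it the difference was 0.008 for GATA1 and 0.03 for ZFPM1, against −0.79 and −1.17 without control replicate 1. LMO2 was 0.16 without ZNF16 replicate 1.

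Among genes of the thrombopoietin axis, 6 were tested, 2 above 0 and 4 below, with a median of −0.37. STAT3 had signals of 1144 and 1509 with ZNF16 and 2124 and 1944 in the controls. Both ZNF16 arrays were below both controls, with a log2 difference of −0.84 ± 0.25 (SE, n = 2 a group; limma adjusted p = 0.495). STAT5B had −0.65 ± 0.33, and the kinase TYK2 and STAT5A had 0.45 ± 0.25 and 0.44 ± 0.29, with adjusted p-values from 0.664 to 0.715. STAT5B was −0.24 without ZNF16 replicate 1, −1.07 without ZNF16 replicate 2 and −0.43 without control replicate 2. With control replicate 1 left out STAT5A was 0.07 and TYK2 0.71, and with control replicate 2 left out they were 0.82 and 0.20.

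**Figure D4:**
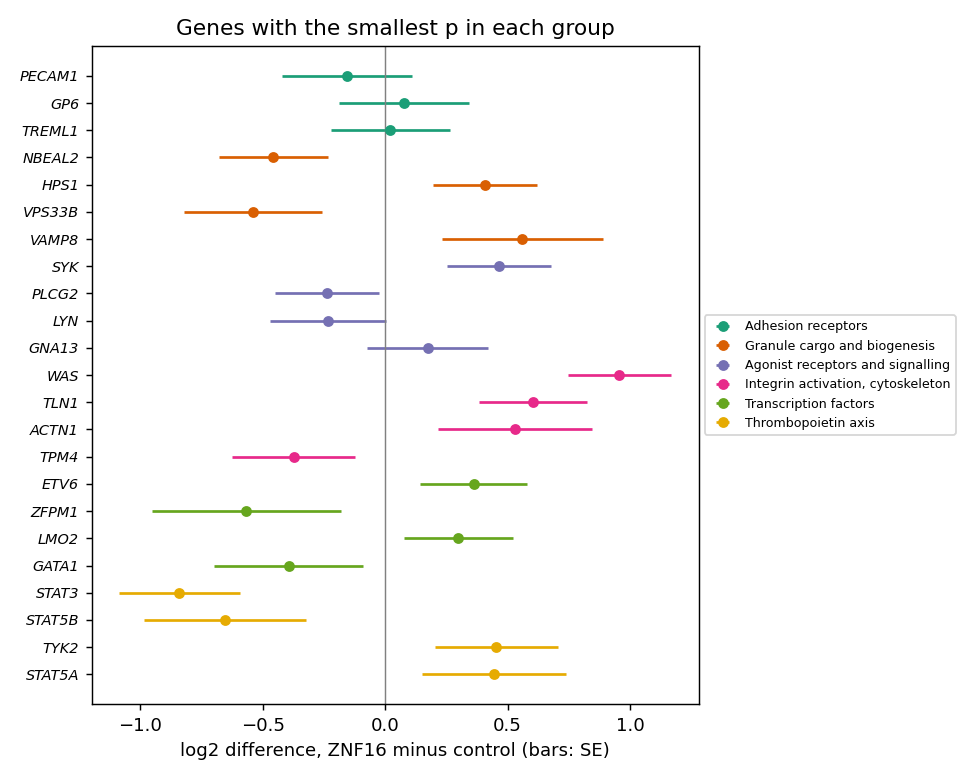
Log2 difference, ZNF16 minus control, with its SE for up to 4 tested genes of smallest p in each list by role. Differences run from −0.84 for STAT3 to 0.96 for WAS, in both directions within each group.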

How the data were processed

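RNA of stable K562 transductants was hybridised to Illumina HumanHT-12 beadchips, 2 arrays in each group, grouped by sample title. The deposited signals are linear intensity values. The submitters' processing notes name GenomeStudio 2010.2. As judged from the values, they were neither background-subtracted nor scaled. A detection p-value beside each signal was deposited by the authors, per the file headers. The table has 1 entry for each gene symbol, and the sources used here do not say how probes were combined. Single probes give detection p-values in steps of 1 in 770, as 27095 entries did (to within 0.002 of a step), so the other 7597 were taken as averages. Where all p-values are 0, the number of probes stays unknown. The authors' processed intensity table follows a straight line of each array's signal.

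Signals were corrected with limma 3.58.1 (R 4.3.3) by normexp. Negative-control statistics came from single-probe detection p-values, and an offset of 16, quantile normalization and log2 followed. Entries with a detection p under 0.05 on at least 2 arrays were tested with lmFit and eBayes, two-sided, with Benjamini-Hochberg adjustment over all 10868. The steps were checked on simulated data. SEPT5, outside the filter, was read from a fit over every entry.

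The 9 genes and all lists were chosen with earlier results of these data known. All 9 are described. Some genes of the further lists are not reported here. From each further list the 4 tested genes of smallest p are named. Undetected genes and entries taken to combine several probes are also named, some of them picked after their values were seen. Alternatives changed the background correction, offset, scaling, filter, variance model, replicate block and arrays used. The number of arrays limits the precision.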

Additional observations from a re-analysis of the deposited data

How the results depend on the processing

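Of the 9 genes, those tested passed in none of 15 alternatives. They were 4 in most, 3 where detection was needed on all 4 arrays and 8 with no filter, and GP1BB was never among them. Over the 4 tested genes, 55 of 59 alternative values kept their sign. Changes of filter, variance model or replicate block cannot alter a difference, so those values, here and for the further genes, kept theirs by construction. FERMT3 was 0.30 without control replicate 2, TUBB1 was −0.0405 without ZNF16 replicate 1, and F2RL3 was −0.21 without control replicate 1 and −0.0902 under median scaling. With 1 array left out, ANGPT1 ranged from 0.26 to 0.52, TUBB1 from −0.0405 to 0.73, F2RL3 from −0.21 to 0.52 and FERMT3 from −0.89 to 0.30; the cause was not tested. Under median scaling all tested entries had a median of −0.19, and relative to it F2RL3 was 0.10, TUBB1 0.29, ANGPT1 0.36 and FERMT3 −0.27. Of 349 alternative values of 24 further genes, 13 changed sign. Under median scaling GP6 was −0.24, GNA13 −0.11 and TREML1 −0.0753, or −0.05, 0.08 and 0.11 relative to the median of all tested entries, so of these GP6 alone turned relative to the rest. TREML1 was −0.0107 in the authors' processed values. Where all entries gave the negative-control statistics ETV6 was 0.02, TPM4 −0.02 and STAT5B −0.10, while STAT5A was 0.66 and ACTN1 0.55. With 1 array left out GP6 ranged from −0.18 to 0.33, GNA13 from −0.00167 to 0.35, TREML1 from −0.19 to 0.23, PECAM1 from −0.40 to 0.0853, GATA1 from −0.79 to 0.00766 and ZFPM1 from −1.17 to 0.0306. The count of tested entries past the threshold was 0, but 7 under median scaling, 3 with normexp by maximum likelihood, 3 with an offset of 50, 3 with a trended and robust variance model, 128 with the replicate block, and 0 to 2 with 1 array left out. The 2 replicate numbers shared by the groups are not said to mark a batch. Deviations of same-numbered arrays correlated at 0.19 over entries. With the replicate number as a block ANGPT1 had a limma adjusted p of 0.554. Its difference of 0.39 could not change, since both groups hold the same replicate numbers. The count of detected genes was 4, or 3 when detection was needed on all 4 arrays, and 3 to 4 with 1 array left out. Groups did not overlap in 1 tested gene of the 9, where 21.0% of all tested entries had ZNF16 above and 19.0% below. Under median scaling there was none. With 1 array left out there were 1 to 4, but 1 array against 2 separates more easily. The share over all entries was not computed for these alternatives, so nothing is read from their counts. A filter that tests every entry gives no count of detected genes. Signals close to the negative controls limit ITGA2B, GP9, PF4 and FLI1, for which differences were not detectable.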
